A study of Mus musculus with 9 samples.

Results

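The M libraries, which are RAW264.7 macrophage cells titled LPS+Extract, were compared with the Normal libraries. The comparison used 6 of the 9 libraries of the series, 3 per group, chosen by group alone and not by any measured value. Of the 26146 genes in the deposited table, 11536 were tested, those that reached an FPKM of 1 in no fewer than 3 of the 9 libraries. RAW264.7 is an established mouse macrophage-like line, and LPS is lipopolysaccharide, a component of the outer membrane of Gram-negative bacteria. Normal stands for cells of the line with no treatment named. The remaining 3 libraries are called ET. The labels conflict on the treated groups. Under the sample titles and the table columns they point to, M received LPS with extract and ET received LPS only. The library names in the same labels say the reverse, that M had LPS only and that the extract went to ET. Both readings give M as cells that had received LPS, so the comparison with Normal contains LPS in either case, and whether it also contains the extract depends on the reading. The plant or preparation, the dose and the time of exposure are not given in the labels used here. The labels do not say that the 3 libraries of a group came from separate cultures, so p-values measure only the spread between these libraries, which may be technical.

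LPS is sensed by TLR4 with its co-receptors CD14 and MD-2 (Ly96). One arm of signalling runs through MyD88 to the NF-kB and AP-1 transcription factors, which switch on cytokines, chemokines and their own inhibitors. The other arm runs through TRIF (Ticam1) to IRF3 and interferon beta, and secreted interferon then acts back through STAT and IRF factors on genes that carry an interferon-stimulated response element. In macrophages this response is known for nitric oxide and itaconate production, a rise in glycolysis, prostaglandin synthesis and arrest of proliferation.

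Upstream sequences of 8 genes described below, chosen among those that hold a match, show the 3 kinds of element named above. They are stretches of the 250 bases before the start, taken from RefSeq on GRCm38.p6 and printed 5′ to 3′ on the gene's strand. Capitals mark matches to the kappa-B motif, to the interferon-stimulated response element (GAAA, any 2 bases, GAAA) and to AP-1 (TGANTCA), each searched on both strands. Cxcl10 (chr5:92348944-92349112, minus strand) is a chemokine gene and held all 3 kinds within 1 promoter. Cxcl2 (chr5:90903792-90903822, plus strand), a neutrophil chemokine gene, and Tnfaip3 (chr10:19015411-19015556, minus strand), which encodes the NF-kB inhibitor A20, held kappa-B matches, Tnfaip3 also 1 for AP-1, and the 2 matches of Cxcl2 overlap each other. Il6 (chr5:30012864-30013089, plus strand) held a kappa-B match 44 bases before the start and AP-1 at the far end of the window. Ifit1 (chr19:34640775-34640823, plus strand), Gbp2 (chr3:142620551-142620623, plus strand) and Rsad2 (chr12:26456520-26456582, minus strand) are interferon-stimulated genes and held the response element, with AP-1 beside it in Gbp2 and Rsad2. Myd88 (chr9:119340039-119340068, minus strand), the adaptor of TLR4, held it 40 bases before the start. All 8 genes were called higher in M. Matches also stood before genes that fell, such as Irf1 (kappa-B), Trem2 (AP-1) and Brca2 (the response element), so a match does not mark a rise. A match is a description of the letters and not a bound site.
Cxcl10: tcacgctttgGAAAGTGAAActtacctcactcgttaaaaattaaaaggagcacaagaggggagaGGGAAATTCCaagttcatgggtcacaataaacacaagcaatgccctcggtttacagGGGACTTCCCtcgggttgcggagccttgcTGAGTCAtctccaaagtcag
Cxcl2: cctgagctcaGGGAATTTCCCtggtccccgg
Tnfaip3: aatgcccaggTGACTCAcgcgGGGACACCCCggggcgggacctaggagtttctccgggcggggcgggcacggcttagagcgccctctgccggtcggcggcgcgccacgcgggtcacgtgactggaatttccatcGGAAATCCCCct
Il6: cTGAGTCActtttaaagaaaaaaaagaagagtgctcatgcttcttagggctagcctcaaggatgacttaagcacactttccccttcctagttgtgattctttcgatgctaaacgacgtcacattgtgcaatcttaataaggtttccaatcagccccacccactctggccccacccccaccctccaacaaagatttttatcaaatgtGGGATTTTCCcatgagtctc
Ifit1: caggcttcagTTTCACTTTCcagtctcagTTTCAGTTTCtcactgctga
Gbp2: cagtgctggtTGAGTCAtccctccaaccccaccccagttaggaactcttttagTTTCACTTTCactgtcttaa
Rsad2: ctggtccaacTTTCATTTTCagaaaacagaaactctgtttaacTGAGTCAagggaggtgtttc
Myd88: gagcttctcgGAAAGCGAAAgaaggagggg

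Sequencing depth was 56921531 to 76242718 counts per library in Normal and 57796361 to 60881764 in M. Levels below are CPM, read counts relative to library size, scaled by TMM factors, and FPKM, the authors' values per kilobase, is used where levels of different genes are compared. A gene at 0 counts in a group is compared with a floor of 3 counts per library (0.0378 to 0.0534 CPM over these 6 libraries), which gives a lower bound of the fold. Changes are log2 differences, M minus Normal, from edgeR's quasi-likelihood test on counts, and a gene is called where its Benjamini-Hochberg adjusted p over the 11536 tested genes is under 0.05. The leading principal component of all 9 libraries carried 90.5% of the variance and separated Normal from the treated libraries. Of 17 macrophage markers, 13 reached FPKM of 1 in Normal and 12 in M, Adgre1, Cd68, Csf1r, Itgam and Lyz2 among them in both. In bulk RNA, fewer cells of a type and less RNA per cell cannot be told apart.

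M differed from Normal across most of the transcriptome. In M, 4101 genes were called higher (35.5% of those tested) and 3978 were called lower (34.5%), together 70.0%. Counts within the lists below are to be read against these shares. The median change of all tested genes was -0.01. Levels in the 3 M libraries did not overlap those in the 3 Normal libraries for 74.8% of the tested genes, so lack of overlap is no mark of a particular gene here. The large changes were mostly rises. At least 2-fold, 1226 genes were higher (10.6%) and 609 were lower (5.28%). At least 4-fold, 635 were higher (5.50%) and 110 were lower (0.954%), and at least 16-fold 280 were higher and 17 lower. The genes called at least 2-fold higher took 3.30% to 3.34% of all counts in the Normal libraries and 13.1% to 13.5% in M. Those called at least 2-fold lower took 4.55% to 4.65% in Normal and 1.53% to 1.58% in M. There were 73 tested genes with 0 counts in all Normal libraries, and they held 0.257% to 0.278% of the counts in M. Such genes passed the filter only through the treated libraries, which fixed their direction. Genes under FPKM of 1 in every Normal library also passed only through the treated libraries, which favoured a rise. This touches the counts over tested members of the lists below, among them cytokines, chemokines, interferon-stimulated genes and GTPases. A single tested gene had 0 counts in all M libraries. It was Cbr2, a carbonyl reductase gene named after its values were seen, with 2.15, 1.85 and 2.75 CPM in Normal.

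**Figure D1:**
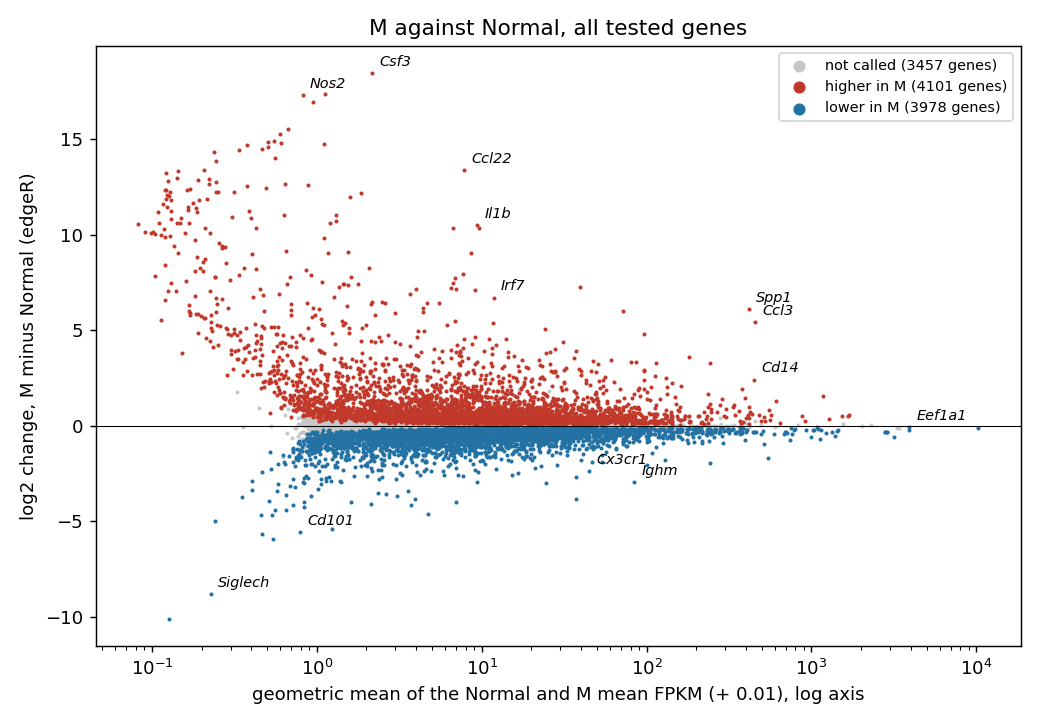
Log2 change of each tested gene, M minus Normal by edgeR (vertical axis), against the geometric mean of its mean FPKM in the 2 groups (horizontal axis, log scale), with 4101 genes higher in M in red, 3978 lower in blue and the others in grey. Changes of more than 10 on the log2 scale lie almost all above zero, at the left, where the Normal level was near 0, while Spp1 and Ccl3 combine a large rise with a high level.

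The 12 genes named here had the largest fitted rises among genes with a mean of at least 5 FPKM in M, and all had 0 counts in Normal. Their order rests on fitted values, and only lower bounds of their folds are known, so genes with a few counts in Normal, such as Ccl22 below (10131-fold), may have risen as much or more. Csf3, which encodes the granulocyte growth factor G-CSF, had 0 counts in each Normal library and 760.3, 736 and 681 CPM in M, at least 14262-fold higher. Il6, a fever-inducing cytokine, had 0 counts in each Normal library and 368, 336 and 316 CPM in M, at least 6685-fold higher. Nos2, the inducible nitric oxide synthase, had 0 counts in each Normal library and 318, 344 and 329.8 CPM in M, at least 6494-fold higher. Each was thus not detected in Normal at this depth and abundant in every M library. Lcn2, an iron-scavenging protein that withholds siderophores from bacteria, had 0 counts in each Normal library and 279.7, 267 and 232 CPM in M, at least 5099.7-fold higher. Upp1, a uridine phosphorylase, reached 102, 99.3 and 86.4 CPM in M, at least 1881-fold higher. Edn1, the vasoconstrictor endothelin-1, reached 64.6, 59.9 and 55.02 CPM in M, at least 1175-fold higher. The others were Il11, Ccr7 and Crhbp, described with the ET libraries below, Urah at 58.1, 60.3 and 53.98 CPM in M, and the stefin genes Cstdc4 and Stfa3, which inhibit cysteine proteases, at 62.04, 62.6 and 60.4 CPM in M and 54.002, 57.9 and 53.4 CPM in M. Stefin genes are close copies of each other on chromosome 16, so reads may have been split among them.

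Receptors and kinases of the TLR4 pathway moved in both directions. Of 31 tested members, 15 rose, 12 fell and 4 were not called, with a median change of 0.08. Among all tested genes 35.5% rose and 34.5% fell, so movement both ways is no mark of this list. Tlr4 itself had 37.7, 37.9 and 36.3 CPM in Normal against 45.7, 42.2 and 44.4 CPM in M (log2 change 0.24 ± 0.08 SE, adjusted p = 0.0181), a small difference with no overlap. The call was lost without M replicate 1, where the change was 0.22, and with scaling by total counts alone, where it was 0.15. It was also lost with both limma fits (0.13 and 0.15) and at an adjusted p of 0.01. Its co-receptors rose more. Cd14 had 352, 361 and 368 CPM in Normal against 1971, 1936 and 1860.2 CPM in M (log2 change 2.42 ± 0.04 SE, adjusted p = 4.07e-14), and Ly96 had 4.18, 2.86 and 2.75 CPM in Normal against 8.79, 7.89 and 7.14 CPM in M (log2 change 1.28 ± 0.17 SE, adjusted p = 2.06e-05). Of the adaptors, Myd88 rose slightly, from 138, 129.8 and 139 CPM to 148, 155 and 155 CPM. That call was lost with total counts alone (0.08) and with both limma fits (0.083 and 0.084). Ticam1 rose 2.27-fold, from 22.9, 24.5 and 23.2 CPM to 52.4, 54.7 and 53.2 CPM. Ticam2, the bridging adaptor between TLR4 and TRIF, fell (log2 change -1.22). The kinase Irak1, which acts just below MyD88, fell from 144, 153 and 149.9 CPM to 65.7, 59.6 and 70.7 CPM. Its relatives went the other way. Irak2, a kinase of late signalling, rose 3.69-fold, and Irak3, which restrains the pathway, rose 6.59-fold with 15.2, 11.4 and 10.03 CPM in Normal against 77.1, 84.8 and 79.5 CPM in M. Ikbke, a kinase of the interferon arm, rose 3.65-fold. The 4 members not called, Traf6, Tab3, Ikbkg and Mapk8, had changes of -0.05, -0.02, 0.08 and 0.02. With total counts alone Traf6 was called lower (-0.15).

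Among 7 other tested Toll-like receptor genes, 3 rose, 3 fell and 1 was not called. Tlr1, which pairs with TLR2 on bacterial lipoproteins, rose 2.85-fold, and Tlr9, a sensor of unmethylated DNA, rose 2.64-fold. Tlr2 fell, with 321, 301 and 308 CPM in Normal against 183, 171 and 171 CPM in M (log2 change -0.83 ± 0.04 SE, adjusted p = 1.73e-09). Unc93b1, the chaperone that carries nucleic acid receptors to endosomes, fell from 338, 330.2 and 327 CPM to 219, 214 and 218 CPM. Of 15 tested sensors in the cytosol and their adaptors, 11 were higher and none lower, with a median change of 2.49. Ddx58 (RIG-I) had 15.6, 13.7 and 13.6 CPM in Normal against 209, 217 and 214 CPM in M (log2 change 3.90 ± 0.05 SE, adjusted p = 1.64e-14), and Ifih1 (MDA5) had 4.36, 4.08 and 3.85 CPM in Normal against 101, 103 and 106 CPM in M (log2 change 4.65 ± 0.07 SE, adjusted p = 2.03e-14). Zbp1, a sensor of Z-form nucleic acid, had 0.316, 0.0756 and 0.492 CPM in Normal against 50.4, 49.9 and 50.2 CPM in M. Cgas, Aim2 and the adaptors Mavs and Sting1 were the 4 not called, with changes between -0.13 and 0.11. Cgas was called lower with only the 6 libraries compared (-0.13), with total counts alone (-0.22), with both limma fits (-0.20 and -0.21) and with 2 other filters. It was also called lower without ET replicate 1 (-0.13) or ET replicate 3 (-0.12). Aim2 was called higher without M replicate 2 (0.17).

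NF-kB subunits and their inhibitors rose, 9 of 11 with none lower and a median change of 1.27. The inhibitors rose in 6 of 6. Nfkbia, which holds NF-kB in the cytosol, had 106, 103 and 108 CPM in Normal against 282, 289.6 and 277 CPM in M (log2 change 1.42 ± 0.04 SE, adjusted p = 3.83e-12). Nfkbiz, a nuclear member needed for Il6 transcription, had 9.705, 14.5 and 12.8 CPM in Normal against 119.5, 129 and 119.8 CPM in M (log2 change 3.31 ± 0.11 SE, adjusted p = 2.39e-11). Rel, the c-Rel subunit, rose 2.75-fold. Rela, the p65 subunit, had 68.3, 68.7 and 76.99 CPM in Normal against 76.4, 76.1 and 76.01 CPM in M and was not called, and the libraries of the 2 groups overlapped. Without Normal replicate 3 it was called higher, with a change of 0.16. Relb was not called either.

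Feedback inhibitors of the response rose in 24 of 36 tested members, with 5 lower. The 8 MAP kinase phosphatases all rose, by 1.82 to 7.17 on the log2 scale. Dusp2 had 14.3, 13.3 and 15.6 CPM in Normal against 157, 153 and 155 CPM in M (log2 change 3.44 ± 0.06 SE, adjusted p = 8.03e-14), and Dusp5 had 0.442, 1.5002 and 0.594 CPM in Normal against 121, 137 and 129 CPM in M. Tnfaip3, an ubiquitin-editing enzyme, had 14.2, 13.02 and 12.5 CPM in Normal against 47.3, 45.4 and 45.7 CPM in M (log2 change 1.80 ± 0.06 SE, adjusted p = 6.61e-11). Traf1, an adaptor of TNF receptors, rose 16.2-fold. Zfp36 (tristetraprolin), which destabilises cytokine mRNA, had 35.8, 35.4 and 35.3 CPM in Normal against 201, 215 and 212 CPM in M (log2 change 2.56 ± 0.04 SE, adjusted p = 2.53e-14). Its relatives Zfp36l1 and Zfp36l2 fell, by 0.55 and 0.54 on the log2 scale. Socs3, an inhibitor of IL-6 receptor signalling, had 34.2, 31.1 and 33.5 CPM in Normal against 370.2, 395 and 373 CPM in M (log2 change 3.53 ± 0.06 SE, adjusted p = 3.92e-14). Socs4, Pias1 and Pias3 were the other 3 members that fell, with changes of -0.29, -0.42 and -0.48.

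Transcription factors of the response rose in 44 of 65 tested members and fell in 16. AP-1 and ATF factors rose in 12 of 13, Atf4 being the exception. Fosl2 had 25.5, 25.2 and 23.5 CPM in Normal against 134, 141 and 136 CPM in M (log2 change 2.47 ± 0.04 SE, adjusted p = 9.13e-14). Immediate early genes rose in 11 of 12. Ier3, a survival gene, had 22.4, 19.4 and 23.9 CPM in Normal against 616, 624 and 611 CPM in M (log2 change 4.82 ± 0.07 SE, adjusted p = 1.2e-14), and Myc had 0.757, 0.290 and 0.272 CPM in Normal against 25.2, 19.5 and 17.7 CPM in M (log2 change 5.57 ± 0.27 SE, adjusted p = 1.25e-09). The 1 that fell, Klf4, had 12.3, 15.5 and 12.4 CPM in Normal against 2.18, 1.99 and 2.38 CPM in M. STAT factors rose in 5 of 6. IRF factors were divided, 4 higher and 4 lower. Irf7, which amplifies interferon production, had 4.81, 4.16 and 5.09 CPM in Normal against 499, 489.9 and 474 CPM in M (log2 change 6.71 ± 0.07 SE, adjusted p = 1.76e-15). Irf1 fell, with 28.6, 32.8 and 29.1 CPM in Normal against 16.2, 16.3 and 16.6 CPM in M (log2 change -0.88 ± 0.08 SE, adjusted p = 5.66e-07), and no library overlapped. Spi1 (PU.1), a factor that defines the myeloid lineage, fell by 0.40 on the log2 scale, and Nfe2l2, which encodes the oxidative stress factor NRF2, had 187, 194 and 189 CPM in Normal against 92.8, 81.8 and 88.2 CPM in M.

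In the IL-1 family, 9 of 10 tested members rose, 8 of them at least 2-fold against 10.6% of all tested genes, and Il1rl1, the IL-33 receptor, fell. Members near 0 in Normal, such as Il1a, Il1b and Il1rn (mean FPKM 0.024, 0.24 and 0.50), entered only through the treated libraries. The filter thus favoured a rise, and this count is no independent result. The median change was 8.55, or 7.28 with genes at 0 in Normal set to their bound. Il1b had 0.458, 0.529 and 0.509 CPM in Normal against 756, 741 and 678 CPM in M (log2 change 10.49 ± 0.09 SE, adjusted p = 1.42e-15). Il1a had 0, 0 and 0.153 CPM in Normal against 239, 214 and 200.3 CPM in M (log2 change 12.19 ± 0.23 SE, adjusted p = 1.21e-13). Il1rn, the secreted antagonist of both, had 2.64, 2.96 and 2.97 CPM in Normal against 749, 704 and 656 CPM in M (log2 change 7.94 ± 0.09 SE, adjusted p = 3.3e-15). All 3 were therefore high in every M library, agonists and antagonist together. Il33, an alarm cytokine, had 0 counts in each Normal library and 15.97, 15.2 and 16.1 CPM in M, at least 309.7-fold higher.

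Tnf had 56.8, 60.3 and 67.8 CPM in Normal against 429, 479 and 472 CPM in M (log2 change 2.90 ± 0.07 SE, adjusted p = 6.47e-13), a rise of 7.46-fold from a level already present in Normal. In the TNF family 14 of 16 tested members rose. Members near 0 in Normal, such as Tnfrsf9 (mean FPKM 0.0074), entered only through the treated libraries, which favoured a rise. Tnfrsf1b, the second TNF receptor, rose 21.1-fold to 608, 605 and 535 CPM in M, while Tnfrsf1a, the first, fell by 0.22 on the log2 scale. Tnfrsf9 (4-1BB), a co-stimulatory receptor, had 0.0631, 0 and 0 CPM in Normal against 144, 141 and 124 CPM in M. Tnfsf9, its ligand, fell by 0.90 on the log2 scale. The ligand and its receptor thus moved in opposite directions. Of the IL-6 family, 4 of 6 tested members rose. Among these, Il6 and Il11 (0 counts in Normal) and Lif (mean FPKM 0.0037) also entered only through the treated libraries. Osm, oncostatin M, had 4.29, 4.31 and 5.57 CPM in Normal against 64.3, 72.9 and 66.5 CPM in M (log2 change 3.85 ± 0.10 SE, adjusted p = 2.34e-12), and Lif, leukaemia inhibitory factor, had 0, 0.0504 and 0 CPM in Normal against 138, 149.6 and 138 CPM in M. Il10, which restrains macrophages, had 0.126, 0 and 0 CPM in Normal against 2.89, 3.098 and 2.91 CPM in M (log2 change 6.14 ± 0.54 SE, adjusted p = 4.22e-07), and Il27 had 0.284, 0.340 and 0.136 CPM in Normal against 1.51, 1.73 and 1.84 CPM in M (log2 change 2.70 ± 0.36 SE, adjusted p = 2.19e-05). Both stayed far below Il6. Il12b and Il23a, whose products form interleukin-23, did not pass the filter, and reached no more than 0.451 and 2.38 CPM in any M library.

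Colony-stimulating factors rose, 3 of 3 tested. In Normal Csf2 and Csf3 had 0 counts and Csf1 a mean FPKM of 0.10, so all 3 entered only through the treated libraries. The filter thus favoured a rise, and this count is no independent result. Csf2 (GM-CSF) had 0 counts in each Normal library and 12.1, 11.1 and 13.9 CPM in M, at least 243-fold higher. Csf1, the growth factor of macrophages, had 0.710, 0.429 and 0.526 CPM in Normal against 10.6, 10.7 and 11.4 CPM in M (log2 change 4.30 ± 0.17 SE, adjusted p = 1.41e-10). Of 5 tested receptors for these factors 3 rose and 2 fell. Csf2ra, Csf2rb and Csf2rb2, chains of the GM-CSF receptor, rose 1.48-fold, 2.03-fold and 3.19-fold. Csf1r, the receptor of Csf1 and a marker of the lineage, fell, with 1901, 1874 and 1971 CPM in Normal against 1099.8, 1127 and 1133 CPM in M (log2 change -0.77 ± 0.03 SE, adjusted p = 7.9e-11). Csf3r, the receptor of Csf3, had 10.7, 13.6 and 13.7 CPM in Normal against 1.003, 0.712 and 1.21 CPM in M (log2 change -3.69 ± 0.21 SE, adjusted p = 5.67e-09).

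All 8 tested CC chemokines rose, with a median change of 7.52. Those near 0 in Normal, such as Ccl2 and Ccl22 (mean FPKM 0.18 and 0.074), were tested only because of the treated libraries, which favoured this direction. Ccl3 (MIP-1α) had 58.9, 52.5 and 60.1 CPM in Normal against 2519, 2441 and 2345 CPM in M (log2 change 5.41 ± 0.06 SE, adjusted p = 5.51e-15) and was among the 10 protein-coding genes of highest FPKM in M, at 2891 FPKM. Ccl4 had 6.34, 5.42 and 7.25 CPM in Normal against 406, 423 and 396 CPM in M (log2 change 6.02 ± 0.08 SE, adjusted p = 1.18e-14). Ccl2, a monocyte attractant, had 0.174, 0.176 and 0.339 CPM in Normal against 298, 292 and 274 CPM in M (log2 change 10.32 ± 0.11 SE, adjusted p = 3.3e-15). Ccl5 had 0.521, 0.391 and 0.255 CPM in Normal against 212, 219 and 179 CPM in M (log2 change 9.01 ± 0.17 SE, adjusted p = 1.21e-13). These went from a trace in Normal, apart from Ccl3 and Ccl4, to a uniform level in M. Ccl22, which attracts regulatory T cells, had 0.0631, 0.101 and 0.390 CPM in Normal against 1956, 1954 and 1705 CPM in M (log2 change 13.38 ± 0.21 SE, adjusted p = 3.46e-14). All 4 tested CXC chemokines rose as well, with the same limit for Cxcl2 and Cxcl10 (mean FPKM 0.018 and 0.31 in Normal). Cxcl2 had 0, 0.0630 and 0.0848 CPM in Normal against 207, 214 and 199 CPM in M (log2 change 11.97 ± 0.15 SE, adjusted p = 8.93e-15). Cxcl10, an interferon-induced attractant of T cells whose promoter is printed above, had 0.631, 0.593 and 1.04 CPM in Normal against 5.34, 4.51 and 4.79 CPM in M (log2 change 2.70 ± 0.24 SE, adjusted p = 5.26e-07). Among 7 tested chemokine receptors 5 rose, including Ccrl2 with 0.726, 0.933 and 0.475 CPM in Normal against 70.7, 66.8 and 59.6 CPM in M and Cxcr5 with 2.29, 2.32 and 2.19 CPM in Normal against 20.6, 21.7 and 19.3 CPM in M. Cx3cr1, the fractalkine receptor of resident macrophages, fell, with 474, 489 and 511 CPM in Normal against 91.5, 94.5 and 96.3 CPM in M (log2 change -2.39 ± 0.04 SE, adjusted p = 9.06e-14).

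**Figure D2:**
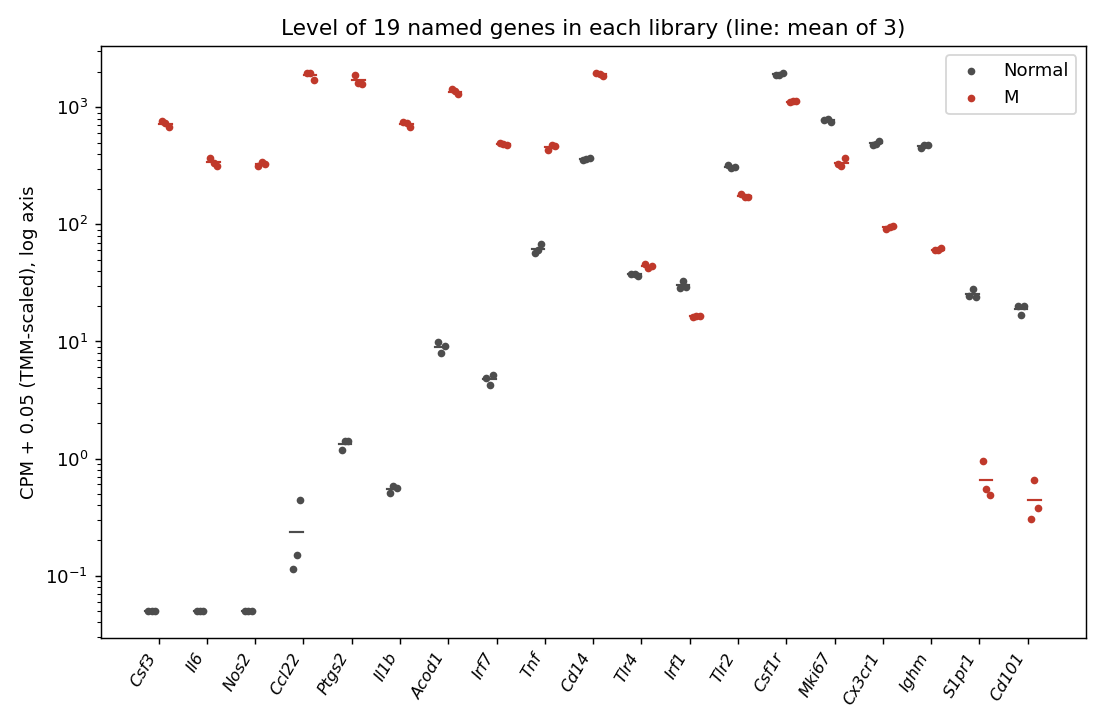
Level of 19 named genes in each of the 3 Normal (grey) and 3 M (red) libraries, as CPM + 0.05 on a log axis, with a line at the mean. From Csf3 to Tlr4 every M library lies above every Normal library, and from Irf1 to Cd101 every M library lies below, with spreads within a group that are small beside the gap except at Tlr4.

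Interferon-stimulated genes rose as a group, and Ifnb1, the interferon beta gene, was scarce. Of 46 tested antiviral genes, 45 rose and none fell, with a median change of 3.20, against 35.5% higher among all tested genes. Members near 0 in Normal, such as Rsad2 (mean FPKM 0.056), entered only through the treated libraries, which favoured a rise. Apobec3 alone was not called. Rsad2 (viperin) had 0.316, 0.252 and 0.204 CPM in Normal against 62.5, 63.02 and 60.3 CPM in M (log2 change 7.90 ± 0.11 SE, adjusted p = 1.98e-14). Ifit1, which binds viral RNA, had 0.931, 0.870 and 0.526 CPM in Normal against 62.2, 72.8 and 66.4 CPM in M (log2 change 6.41 ± 0.14 SE, adjusted p = 3.76e-13). Oas3, which makes the second messenger of RNase L, had 16.001, 14.1 and 14.3 CPM in Normal against 282, 292 and 290.1 CPM in M (log2 change 4.28 ± 0.05 SE, adjusted p = 5.51e-15). Isg15, a ubiquitin-like modifier, had 0.742, 0.504 and 0.509 CPM in Normal against 74.7, 84.4 and 82.3 CPM in M (log2 change 7.11 ± 0.12 SE, adjusted p = 4.63e-14). Rtp4 rose 38.7-fold. Ifnb1 was at 0 counts in Normal and in 1 M library, and at 0.142 and 0.416 CPM in the other two, and failed the filter. Interferon receptors were divided, with Ifnar1 and Ifngr2 higher (log2 change 0.22 and 0.44) and Ifnar2 and Ifngr1 lower (-0.63 and -0.996).

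All 10 tested guanylate-binding proteins and immunity-related GTPases, which attack vacuoles that hold pathogens, were higher (median change 5.13). Members near 0 in Normal, such as Gbp2, Gbp3 and Gbp7 (mean FPKM 0.015, 0.12 and 0.040), entered only through the treated libraries. The filter thus favoured a rise, and this count is no independent result. Gbp2 had 0.126, 0 and 0 CPM in Normal against 5.22, 5.31 and 6.09 CPM in M (log2 change 7.04 ± 0.52 SE, adjusted p = 8.7e-08), Gbp3 had 0.426, 0.504 and 0.305 CPM in Normal against 45.8, 42.5 and 44.3 CPM in M (log2 change 6.71 ± 0.12 SE, adjusted p = 9.41e-14) and Irgm1 had 19.4, 17.5 and 17.8 CPM in Normal against 167, 173 and 177 CPM in M (log2 change 3.24 ± 0.05 SE, adjusted p = 5.07e-14). The Gbp genes lie side by side and resemble each other, so counts may have been shared among them. All 8 tested Schlafen genes rose, Slfn5 from 3.85, 3.67 and 3.12 CPM to 76.97, 72.95 and 80.98 CPM. PARP genes rose in 11 of 16. Parp9, Parp10, Parp12 and Parp14 rose by 1.83, 2.09, 1.56 and 2.59 on the log2 scale, while Parp1 and Parp2, which act in DNA repair, fell by 0.64 and 0.59, and Parp16 by 0.74. TRIM genes rose in 9 of 13, led by Trim30a with 0.395, 0.416 and 0.594 CPM in Normal against 78.2, 79.1 and 81.1 CPM in M (log2 change 7.42 ± 0.13 SE, adjusted p = 6.98e-14).

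MHC class I genes rose in 19 of 23 tested members, the chains in 9 of 9. H2-D1 had 145, 144 and 149.8 CPM in Normal against 592, 604 and 582 CPM in M (log2 change 2.02 ± 0.04 SE, adjusted p = 7.31e-14), and B2m, the shared light chain, had 367, 354 and 356 CPM in Normal against 906, 888 and 856 CPM in M (log2 change 1.30 ± 0.04 SE, adjusted p = 8.91e-12). Peptide loading genes rose in 10 of 14, with Erap1 and the immunoproteasome subunit Psmb10 lower. Class II genes did not share this rise, with 1 higher, 2 lower and 1 not called of 4 tested. Co-stimulatory ligands rose in 10 of 13. Cd80 had 2.71, 4.24 and 2.41 CPM in Normal against 109, 95.8 and 93.7 CPM in M (log2 change 4.97 ± 0.15 SE, adjusted p = 1.53e-11), Cd86 had 0.363, 0.240 and 0.441 CPM in Normal against 19.3, 21.2 and 17.4 CPM in M (log2 change 5.82 ± 0.18 SE, adjusted p = 1.91e-11) and Cd40 had 1.45, 0.693 and 1.37 CPM in Normal against 41.01, 41.1 and 38.1 CPM in M (log2 change 5.12 ± 0.19 SE, adjusted p = 9.66e-11). Cd274 (PD-L1), which restrains T cells, rose in the same libraries, with 2.32, 2.69 and 2.56 CPM in Normal against 52.9, 50.7 and 53.7 CPM in M (log2 change 4.37 ± 0.09 SE, adjusted p = 1.91e-13).

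Surface receptors moved in both directions. Among Fc receptors Fcgr4 rose 31.5-fold and the inhibitory Fcgr2b 11.5-fold, while Fcgr3 was not called. Fcgr1 fell by 0.11 on the log2 scale, a call lost without any 1 of Normal replicates 1 to 3 or M replicates 2 and 3 (changes of -0.11 to -0.08), and Fcgr3 was called higher without M replicate 2 (0.33). Scavenger receptors rose in 6 of 7. Cd36 had 2.57, 2.17 and 1.36 CPM in Normal against 333, 299 and 282 CPM in M (log2 change 7.21 ± 0.14 SE, adjusted p = 1.34e-13), and Msr1 had 3.09, 2.81 and 4.67 CPM in Normal against 253, 255 and 247 CPM in M (log2 change 6.18 ± 0.12 SE, adjusted p = 1.79e-13). Scarb1, the receptor of HDL, fell from 220.4, 217 and 226 CPM to 145, 143 and 141 CPM. Of C-type lectins, the Mincle gene Clec4e and its neighbour Clec4d rose 12.6-fold and 14.5-fold, and Clec7a (Dectin-1) and Clec12a fell by 1.59 and 1.28 on the log2 scale. Trem2, a lipid receptor of tissue macrophages, fell, with 201, 211 and 202 CPM in Normal against 38.8, 37.2 and 35.2 CPM in M (log2 change -2.47 ± 0.05 SE, adjusted p = 1.19e-13). Cd33, an inhibitory Siglec, had 308, 322 and 297 CPM in Normal against 54.7, 52.4 and 48.4 CPM in M (log2 change -2.57 ± 0.06 SE, adjusted p = 9.49e-13). The inhibitory Lilr4b and Lilrb4a rose 41.7-fold and 9.53-fold. Complement genes rose in 9 of 10, with C3ar1 at 2.24, 1.76 and 2.92 CPM in Normal against 204, 199 and 182 CPM in M and Cfp (properdin) 10.2-fold higher.

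Adhesion genes rose in 19 of 23 tested members. Itgb7 had 1.75, 2.02 and 1.41 CPM in Normal against 154, 161 and 140.3 CPM in M (log2 change 6.44 ± 0.11 SE, adjusted p = 5.09e-14), Itga5, the fibronectin receptor chain, rose 7.13-fold, and Cd44, the hyaluronan receptor, rose 5.47-fold. Itga4, a partner of Itgb7, fell from 3099, 3126 and 2966 CPM to 713, 712 and 772 CPM (log2 change -2.06 ± 0.07 SE, adjusted p = 3.57e-11). Jam2 also fell. G protein-coupled receptors outside the chemokine family were divided, 14 higher and 12 lower of 29, as were all tested genes (35.5% and 34.5%). Adgre1 (F4/80), a macrophage marker, had 51.9, 49.6 and 53.1 CPM in Normal against 220.0, 206 and 205 CPM in M (log2 change 2.03 ± 0.06 SE, adjusted p = 6.27e-12). Gpr84, a receptor of medium-chain fatty acids, fell from 91.8, 91.2 and 97.1 CPM to 41.5, 40.03 and 42.2 CPM. Of 7 tested regulators of G protein signalling 3 rose, Rgs1 21.3-fold and Rgs16 75.5-fold among them, and 4 fell, Rgs10 the most at 2.72-fold.

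Growth factor genes rose in 10 of 14 tested members, and extracellular proteases with their inhibitors and receptors in 11 of 14, against 35.5% of all tested genes. Members near 0 in Normal entered only through the treated libraries, which favoured a rise. Examples are Edn1 (0 counts in Normal) and Lif and Mmp9 (mean FPKM 0.0037 and 0.0076). Spp1 (osteopontin) had 87.9, 85.4 and 91.99 CPM in Normal against 6388, 5906 and 6059 CPM in M (log2 change 6.11 ± 0.06 SE, adjusted p = 1.42e-15) and, at 3376 FPKM, stood beside Ccl3 among the 10 highest protein-coding genes of M. The other 8 were Eef1a1 and mitochondrially encoded genes. Pdgfb rose 14.8-fold, and Inhba, a subunit of activin A, had 0 counts in each Normal library and 11.3, 9.26 and 10.5 CPM in M, at least 204-fold higher. Igf1 fell, with 12.3, 14.02 and 12.9 CPM in Normal against 0.714, 0.285 and 0.225 CPM in M, and Vegfb, Pdgfa and Hdgf fell as well. Mmp9, a gelatinase, had 0, 0.0504 and 0.0339 CPM in Normal against 40.7, 42.3 and 39.6 CPM in M (log2 change 10.33 ± 0.20 SE, adjusted p = 1.76e-13). Mmp13, a collagenase, had 0 counts in each Normal library and 4.49, 5.805 and 4.46 CPM in M, at least 96.6-fold higher. Plaur, the receptor of urokinase, rose 14.5-fold, while Plau, urokinase, had 44.7, 47.2 and 47.2 CPM in Normal against 47.3, 49.6 and 50.9 CPM in M and was not called. Cst3 (cystatin C) fell by 1.71 on the log2 scale.

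Enzymes of itaconate, polyamine and prostaglandin synthesis included large rises and large falls. Acod1, which makes itaconate, had 9.85, 7.97 and 9.04 CPM in Normal against 1421, 1369 and 1302 CPM in M (log2 change 7.26 ± 0.08 SE, adjusted p = 3.92e-15). Odc1, the entry to polyamine synthesis, had 295, 272 and 284 CPM in Normal against 2865, 2764 and 2648 CPM in M (log2 change 3.28 ± 0.04 SE, adjusted p = 8.93e-15). Gch1, which supplies the cofactor of Nos2, rose 4.996-fold. Arg2 had 0.268, 0.151 and 0.356 CPM in Normal against 2.89, 4.095 and 2.22 CPM in M (log2 change 3.59 ± 0.32 SE, adjusted p = 5.34e-07), and Arg1 stayed at or under 0.191 CPM in every library of both groups. Ptgs2 (COX-2) had 1.14, 1.35 and 1.36 CPM in Normal against 1895, 1616 and 1579 CPM in M (log2 change 10.37 ± 0.11 SE, adjusted p = 3.3e-15), and Ptges, the next enzyme towards prostaglandin E2, had 1.01, 0.555 and 0.679 CPM in Normal against 28.9, 29.8 and 25.8 CPM in M (log2 change 5.25 ± 0.16 SE, adjusted p = 1.67e-11). The constitutive Ptgs1 fell, with 189, 191 and 202 CPM in Normal against 44.8, 45.3 and 47.6 CPM in M, and so did Alox5, the first enzyme of leukotriene synthesis, with 81.2, 83.02 and 83.7 CPM in Normal against 12.3, 14.4 and 14.2 CPM in M. The eicosanoid list as a whole had 4 of 15 higher and 8 lower.

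Glycolysis genes rose in 18 of 25 tested members, with a median change of 0.50. Slc2a1 (GLUT1) had 104, 101 and 108 CPM in Normal against 323, 345 and 322 CPM in M (log2 change 1.66 ± 0.04 SE, adjusted p = 1.76e-12), Hk3 had 26.2, 26.3 and 23.7 CPM in Normal against 149, 149.6 and 143 CPM in M (log2 change 2.53 ± 0.05 SE, adjusted p = 1.34e-13), and the lactate exporter Slc16a3 rose 2.76-fold. Slc2a6, Slc2a8, Pfkm and Aldoc fell. The pentose phosphate pathway fell in 7 of 9, Rpia by 2.17-fold and Taldo1 by 1.55-fold. Of the tricarboxylic acid cycle and its feeders, 18 of 31 fell and 5 rose, Acod1 among the latter. Idh2 had 259, 248 and 251 CPM in Normal against 84.03, 89.5 and 90.1 CPM in M (log2 change -1.52 ± 0.04 SE, adjusted p = 3.89e-12). Fh1, fumarase, had 237, 243 and 260.3 CPM in Normal against 117, 122 and 122 CPM in M (log2 change -1.04 ± 0.05 SE, adjusted p = 2.75e-09). Sdha, the catalytic subunit of the enzyme that itaconate inhibits, had 341, 351 and 344 CPM in Normal against 241, 244 and 241 CPM in M (log2 change -0.51 ± 0.03 SE, adjusted p = 8.29e-09). Nuclear genes of the respiratory chain fell in 34 of 56 with 3 higher, with a median change of -0.22 on the log2 scale. Mitochondrially encoded genes fell in 11 of 13, mt-Cytb from 4688, 5062 and 4494 CPM to 3191, 3058 and 3118 CPM, and all 37 mitochondrial genes together took 4.39% to 4.61% of counts in Normal and 3.46% to 3.78% in M.

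Genes of cholesterol synthesis and its control fell in 22 of 30 tested members, with 5 higher and a median change of -0.48. Mvd, of the mevalonate branch, had 127, 129 and 133 CPM in Normal against 58.2, 55.8 and 54.95 CPM in M (log2 change -1.21 ± 0.05 SE, adjusted p = 1.09e-10). Dhcr7, of the last steps, had 112, 122 and 127 CPM in Normal against 55.04, 52.97 and 56.8 CPM in M (log2 change -1.13 ± 0.05 SE, adjusted p = 1.06e-09). Idi1, Hsd17b7, Insig2, Npc1 and Npc2 rose. Among sterol export genes Abca1 and Abcg1 parted, Abca1 with 0.647, 0.618 and 0.373 CPM in Normal against 75.6, 62.2 and 59.9 CPM in M (log2 change 6.89 ± 0.15 SE, adjusted p = 6.28e-13) and Abcg1 with 95.9, 91.6 and 92.3 CPM in Normal against 42.03, 40.1 and 39.8 CPM in M (log2 change -1.20 ± 0.04 SE, adjusted p = 8.21e-11). Scd1, a fatty acid desaturase, fell 2.56-fold and Lpl, lipoprotein lipase, 3.51-fold, whereas the lipid droplet coat gene Plin2 rose 7.38-fold and Fabp5, a fatty acid carrier, 5.95-fold.

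Targets of NRF2 were evenly divided, 12 higher and 12 lower of 29, a split near that of all tested genes (35.5% higher and 34.5% lower). Hmox1, which breaks down heme, had 65.2, 67.6 and 67.1 CPM in Normal against 477, 509 and 491 CPM in M (log2 change 2.88 ± 0.04 SE, adjusted p = 1.12e-14), and Slc7a11, the cystine transporter, had 27.2, 28.2 and 27.8 CPM in Normal against 221, 215 and 199 CPM in M (log2 change 2.93 ± 0.05 SE, adjusted p = 6.45e-14). Cat (catalase) fell slightly, with 127, 123 and 131 CPM in Normal against 108, 111 and 101 CPM in M (log2 change -0.25 ± 0.05 SE, adjusted p = 0.000306). Of iron and heme genes, Fth1 (ferritin heavy chain) had 2563, 2459 and 2569 CPM in Normal against 7714, 7665 and 7299.7 CPM in M (log2 change 1.58 ± 0.03 SE, adjusted p = 5.14e-13) and Slc11a1 (NRAMP1) rose 8.61-fold, while Slc40a1, the iron exporter ferroportin, fell by 0.64 on the log2 scale. Targets of ATF4 rose in 23 of 33, Sesn2 2.58-fold, with Atf4 itself not called. Unfolded protein response genes rose in 18 of 23, Ero1l 3.25-fold, and Xbp1 fell from 316, 329 and 340.5 CPM to 199, 199.7 and 199 CPM. Lysosomal genes rose in 27 of 43 and fell in 15. Ctsl had 114, 108 and 109 CPM in Normal against 411, 393 and 411 CPM in M (log2 change 1.88 ± 0.04 SE, adjusted p = 2.27e-13) and Ctsd 598, 582 and 596 CPM in Normal against 1683, 1676 and 1555 CPM in M, whereas Lipa, the acid lipase, fell 2.02-fold. The list of lysosomal proton pump and TFEB genes had 16 of 23 higher and 5 lower. Atp6v0a1, a pump subunit, rose 3.06-fold, and Tfeb, a regulator of lysosomal genes, fell, with 30.7, 28.9 and 29.2 CPM in Normal against 4.999, 5.56 and 6.71 CPM in M.

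Genes of proliferation fell together. Of 43 tested G2/M genes, 40 fell and none rose, and of 45 G1/S genes 35 fell and 4 rose, against 34.5% lower among all tested genes. The falls were small, with medians of -0.50 and -0.40. Mki67, the proliferation marker Ki-67, had 787, 788 and 747 CPM in Normal against 328, 317 and 368 CPM in M (log2 change -1.20 ± 0.09 SE, adjusted p = 5.92e-08). Aurkb, a mitotic kinase, had 157, 162 and 168 CPM in Normal against 80.7, 82.9 and 83.5 CPM in M (log2 change -0.98 ± 0.05 SE, adjusted p = 1.27e-09). E2f2 had 60.7, 62.4 and 64.6 CPM in Normal against 20.4, 21.1 and 18.7 CPM in M (log2 change -1.64 ± 0.08 SE, adjusted p = 1.11e-09), and Mcm7, a part of the replicative helicase, had 256, 247 and 264 CPM in Normal against 142, 152 and 148 CPM in M (log2 change -0.80 ± 0.04 SE, adjusted p = 1.5e-09). The 4 that rose were Ccne1, Ccne2, Rrm2 and Orc1. The call of Ccne2 (log2 change 0.31) was lost without Normal replicate 1 (0.29), Normal replicate 2 (0.31) or M replicate 1 (0.21), with total counts alone (0.22), with no filter (0.29) and with both limma fits (0.20 and 0.21). Repair genes fell in 23 of 30, Brca2 2.05-fold. Dnmt1, the maintenance DNA methyltransferase, fell 2.11-fold. Cdkn1a (p21), an inhibitor of cyclin-dependent kinases, rose, with 106, 113 and 119 CPM in Normal against 385, 409 and 430.0 CPM in M (log2 change 1.86 ± 0.05 SE, adjusted p = 5.22e-12). Ccnd1 (cyclin D1) had 355, 358 and 360.1 CPM in Normal against 338, 377 and 368 CPM in M and was not called, whereas Ccnd2 rose 8.51-fold.

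Targets of p53 rose in 20 of 26 tested members, Plk2 220.0-fold, and 5 fell, 3 of them at least 2-fold. Trp53i11, a member of this list described below with the largest falls, fell 24.1-fold. Trp53 itself fell by 0.50 on the log2 scale. Several of the listed targets, Gadd45b and Plk2 among them, also answer to other stress pathways, and Gadd45b had 2.698, 3.35 and 3.24 CPM in Normal against 45.3, 47.2 and 43.6 CPM in M. Genes of cell survival and death rose in 20 of 29. Bcl2l1, which protects from apoptosis, had 19.1, 18.7 and 19.7 CPM in Normal against 168, 165 and 164 CPM in M (log2 change 3.12 ± 0.04 SE, adjusted p = 1.2e-14), and Bcl2l11 (BIM), which promotes it, had 36.1, 34.9 and 37.8 CPM in Normal against 238, 229 and 223 CPM in M (log2 change 2.66 ± 0.05 SE, adjusted p = 1.86e-13). A protective and a promoting gene were thus higher in the same libraries. Nlrp3 rose 2.67-fold, and P2rx7, the ATP-gated channel that triggers NLRP3, fell 2.14-fold. Cytosolic ribosomal protein genes fell in 61 of 77 with none higher, with a median change of -0.22, Rpl3 from 940.1, 910.3 and 913 CPM to 660.5, 662 and 671 CPM. Genes often used as references moved too. Actb had 2113, 2002 and 2172 CPM in Normal against 2899, 3016 and 2991 CPM in M (log2 change 0.50 ± 0.03 SE, adjusted p = 2.71e-08) and Gapdh 54.5, 54.97 and 50.6 CPM in Normal against 68.4, 75.5 and 82.6 CPM in M (log2 change 0.50 ± 0.07 SE, adjusted p = 2.18e-05). Gapdh has many near-identical pseudogenes, so its counts are uncertain. Of 18 such genes, 9 rose, 8 fell and 1 was not called.

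**Figure D3:**
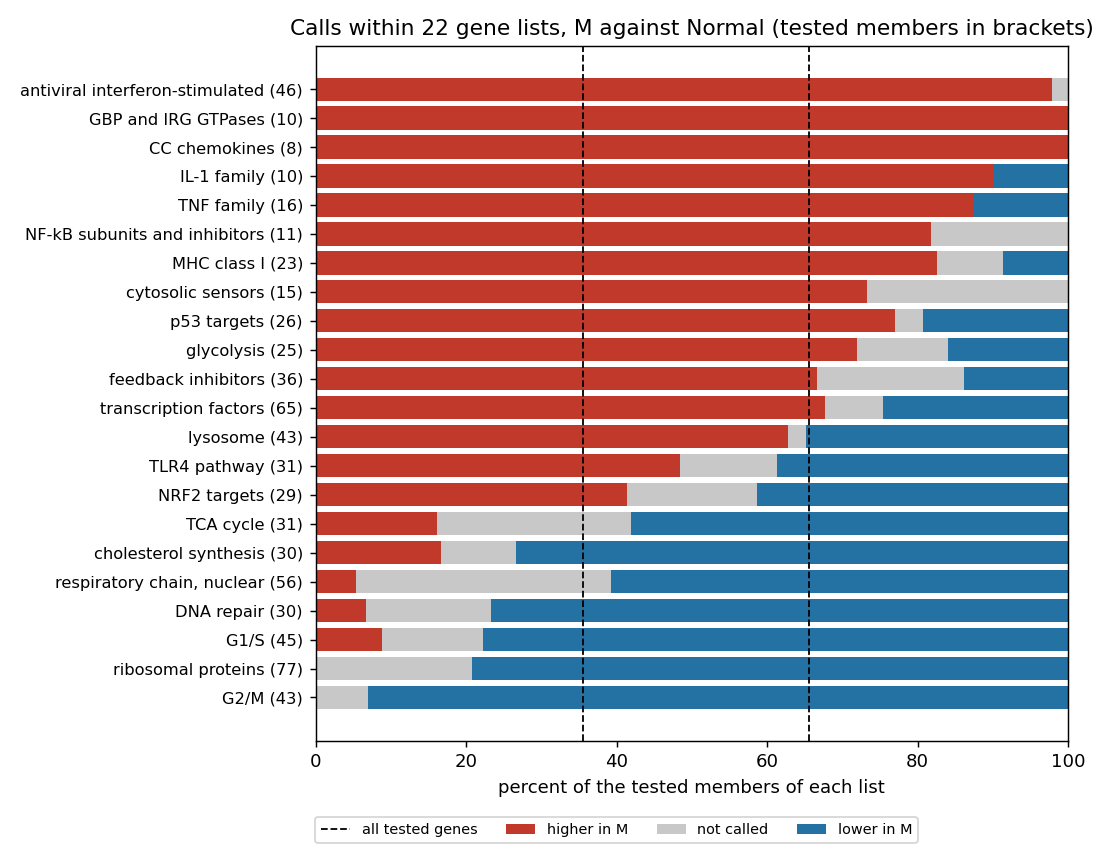
Percent of the tested members of 22 gene lists that were higher (red), not called (grey) or lower (blue) in M than in Normal, with dashed lines at the shares of all tested genes (35.5% higher from the left, 34.5% lower from the right). Interferon, GTPase and cytokine lists lie far to the higher side, and G2/M, ribosomal protein and G1/S lists far to the lower side. The interferon, GTPase and cytokine lists hold members scarce in Normal that passed the filter only through the treated libraries. This favoured the higher side, so their distance from the dashed lines is no independent result.

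The 12 largest falls were taken among genes with a mean of at least 5 FPKM in Normal. Cd101, an inhibitory surface protein, had 19.9, 16.7 and 20.2 CPM in Normal against 0.255, 0.605 and 0.329 CPM in M (log2 change -5.57 ± 0.30 SE, adjusted p = 4.12e-09). S1pr1, the sphingosine 1-phosphate receptor that guides cells out of tissues, had 24.5, 27.9 and 23.9 CPM in Normal against 0.901, 0.499 and 0.434 CPM in M (log2 change -5.37 ± 0.25 SE, adjusted p = 9.08e-10). Trp53i11 had 90.4, 88.99 and 93.02 CPM in Normal against 3.503, 3.8996 and 3.92 CPM in M (log2 change -4.59 ± 0.12 SE, adjusted p = 2.41e-12). These are falls of 47.7-fold, 41.6-fold and 24.1-fold. Cd24a fell 16.05-fold. Klhl30, Slc9a9 and Ppfia4 fell 17.6-fold, 14.1-fold and 11.95-fold. Another 4 of these 12 were the immunoglobulin joining segments Ighj1 to Ighj4 of the heavy chain locus. Their mean levels in Normal were only 7.97, 0.946, 0.626 and 1.67 CPM. They are short and FPKM is per kilobase, so they passed the minimum at low CPM.

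The heavy chain locus was the only place where at least 3 neighbouring tested genes all fell at least 4-fold. The run of 7 lies at chr12:113406604-113430538 and holds Ighd, Ighm, the 4 joining segments and Ighd4-1, whose call was lost without any 1 of Normal replicates 1 to 3 or M replicates 1 and 2 (changes of -3.09 to -2.51). Ighm, the constant region of IgM, had 449, 476 and 479 CPM in Normal against 60.2, 59.8 and 62.3 CPM in M (log2 change -2.95 ± 0.04 SE, adjusted p = 2.07e-14). Such transcripts mark B cells, but of 9 B cell markers 8 were under FPKM of 1 in Normal and 4 were at 0 counts. Summed FPKM of the B cell markers was 229 to 246 in Normal and 31.1 to 32.4 in M, with Ighm the sole marker at FPKM of 1 in Normal and Ighm and Igkc in M, and the part of other cells in this was not tested. Among rises there were 25 such runs, and the 26 runs together held 98 genes. Chemokine genes Ccl5, Ccl9, Ccl3 and Ccl4 and the neighbours Wfdc17 and Wfdc21 formed a run of 6 at chr11:83525778-83752642. Gbp7, Gbp3, Gbp2b and Gbp2 formed one at chr3:142530342-142638008, and Il1f9, Il1f6 and Il1rn one at chr2:24186476-24351494. Cstdc4, Csta3, Stfa2, Stfa3 and Cd86 ran at chr16:36184212-36666081, and Ifit3, Ifit3b and Ifit1 at chr19:34583531-34650009. Many runs hold close copies of 1 gene or overlapping genes, between which reads may have been shared. Coordinates are those of the deposited table, whose build is not named but whose starts and ends equal GRCm38 annotation for 90.1% of genes.

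Most markers of other cell types were under FPKM of 1 in both groups. T cell markers summed to 0.864 to 0.989 FPKM in Normal and 11.6 to 12.6 in M, where 2 of 5, Cd5 and Lck, reached FPKM of 1. Cd5 had 0.316, 0.340 and 0 CPM in Normal against 53.7, 50.3 and 47.9 CPM in M. Granulocyte markers summed to 2.90 to 3.78 FPKM in Normal and 42.2 to 47.9 in M, where 1 of 7, S100a8, reached FPKM of 1, with 0, 0.0504 and 0 CPM in Normal against 34.3, 36.2 and 31.4 CPM in M. Fibroblast markers summed to 0.0941 to 0.243 FPKM in Normal and 4.29 to 6.18 in M, through Lum alone. Endothelial markers went from 0.780 to 0.965 FPKM in Normal to 3.24 to 3.60 in M, and Pecam1 alone reached FPKM of 1. Dendritic cell markers summed to 3.16 to 3.66 FPKM in Normal and 0.884 to 1.40 in M. Siglech, the marker behind that sum, fell from 10.2, 11.7 and 11.6 CPM to 0, 0 and 0.0694 CPM. Epithelial, mast cell and platelet or erythroid markers stayed under FPKM of 1 but for Hba-a1 in M. Other cells were not tested as a source of these values.

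Motifs in the promoters of the genes that rose were counted in the 250 bases before the start. A RefSeq promoter with a start within 100 bases was found for 6498 of the 11536 tested genes. The interferon-stimulated response element was present in 2.80% of them, in 12.7% of the 324 matched genes called at least 4-fold higher and in 16.6% of the 157 called at least 16-fold higher. It was present in 1.86% of genes not called, in 2.88% of those called at least 2-fold lower and in 2.98% of all promoters of the RefSeq table. Of the antiviral list 13 of 33 matched genes held it (39.4%), and of the GTPase list 5 of 6. It also stood in 4 of 42 matched ribosomal protein genes (9.52%), a list that fell. AP-1 (TGANTCA) was present in 4.03% of matched tested genes, 6.75% of all RefSeq promoters and 17.2% of those at least 16-fold higher. The kappa-B motif was present in 4.29%, 3.90% and 10.2%. E2F (TTTNGCGC) was present in 2.28% of matched tested genes, 1.13% of all RefSeq promoters and 5 of 27 G1/S genes. The antioxidant response element (TGACNNNGC) was present in 11.9% of matched tested genes and 8.92% of those at least 16-fold higher. For the sterol regulatory element (TCACNCCAC) the shares were 0.862% and 0.637%. Of those 157 genes 26 held a response element match in this window and the others did not. Overlap between motifs was counted for each motif separately. These shares are a description of letters and were not tested.

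**Figure D4:**
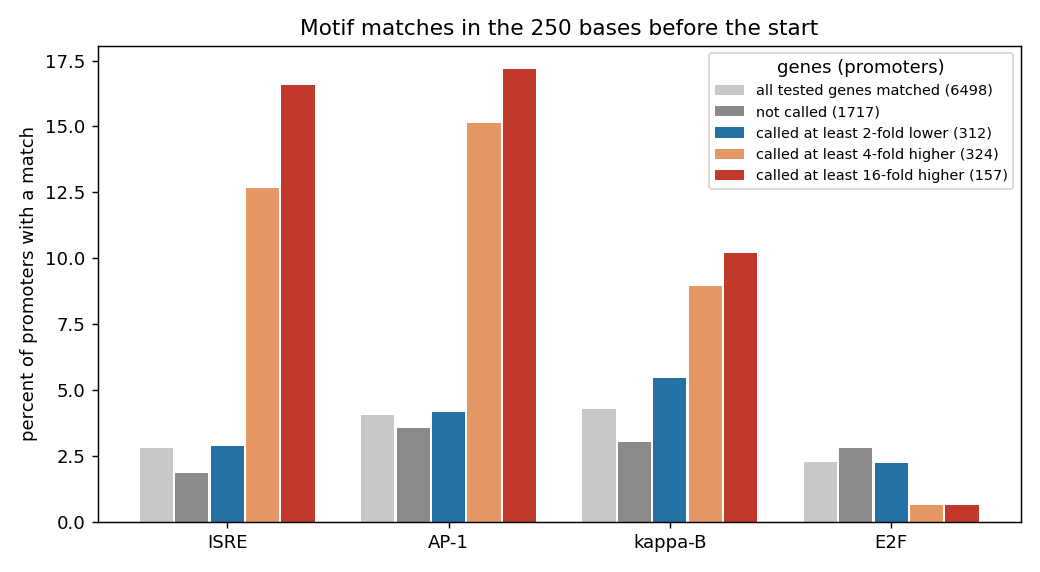
Percent of promoters with at least 1 match in the 250 bases before the start, for 4 motifs and 5 classes of tested genes (number of promoters in the key; ISRE is the interferon-stimulated response element). The response element rises from 2.80% of all matched genes to 16.6% of those at least 16-fold higher, and E2F does not rise.

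M and ET, the other treated libraries, differed in far fewer genes than M and Normal. In M, 573 genes were higher than in ET (4.97% of those tested) and 475 were lower (4.12%). This contrast bears on the extract under both readings of the labels, with its direction turned between them. Among the genes that rose over Normal, some cytokine and chemokine genes were higher still in M than in ET and others were lower. In both the TNF family and the CC chemokines 2 tested members were higher and 2 lower. Tnf, Ccl3 and Ccl4 were lower in M than in ET, with log2 differences of -0.36, -0.27 and -0.22. Il11 had 19.5, 24.3 and 22.1 CPM in ET and 81.5, 83.2 and 79.2 CPM in M, against 0 counts in Normal (log2 difference, M minus ET, 1.89 ± 0.08 SE, adjusted p = 1.1e-06). Lif had 45.5, 52.8 and 42.8 CPM in ET and 138, 149.6 and 138 CPM in M (1.59 ± 0.09 SE, adjusted p = 1.1e-06). Ccr7, the receptor that takes dendritic cells to lymph nodes, had 11.2, 14.1 and 10.6 CPM in ET and 48.5, 49.5 and 41.8 CPM in M (1.96 ± 0.12 SE, adjusted p = 6.28e-06). Crhbp, Ramp3, Crispld2, Tgm2 and Trf complete the 8 genes named to the higher side, chosen by size among genes with a mean of at least 5 FPKM in the higher group, and Trf, transferrin, had 94.8, 119.6 and 84.01 CPM in ET and 334, 316 and 289.7 CPM in M.

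Genes lower in M than in ET included enzymes of redox and carbonyl metabolism. Ptgr1, which inactivates prostaglandins and leukotriene B4, had 86.7, 80.5 and 76.7 CPM in ET and 30.2, 34.6 and 30.9 CPM in M, both above Normal (-1.35 ± 0.09 SE, adjusted p = 2.31e-06). Plau had 108, 112 and 119 CPM in ET and 47.3, 49.6 and 50.9 CPM in M (-1.20 ± 0.05 SE, adjusted p = 1.68e-07), so that M stood near Normal. Blvrb, biliverdin reductase B, had 23.04, 23.5 and 22.6 CPM in Normal, 32.3, 31.7 and 29.2 CPM in ET and 20.5, 18.2 and 16.1 CPM in M (-0.77 ± 0.09 SE, adjusted p = 0.000163). Cat had 174, 183 and 169.6 CPM in ET, above its Normal level, where M was below it. Gpnmb, a glycoprotein of lipid-laden macrophages, had 788, 766 and 677 CPM in ET and 457, 459 and 424 CPM in M. Of 29 NRF2 targets, 15 were lower in M than in ET and 1 was higher, and of 43 lysosomal genes 13 were lower and none higher. Of 30 cholesterol genes 18 were higher in M than in ET and 1 was lower, and of 46 antiviral genes 22 were higher and none lower. None of the 77 ribosomal protein genes was called between M and ET, and 7 of 43 G2/M genes were lower in M. In 13 genes M and ET were both called against Normal in opposite directions and differed from each other. The number of calls between M and ET changed when single libraries were left out. Leaving one out also leaves fewer libraries to test, and these effects cannot be told apart here. Without ET replicate 3, which lay nearer to M than the other ET libraries on the second principal component (2.28% of the variance), 1121 genes were higher and 707 lower. Without any 1 of ET replicates 1 and 2 or M replicates 1 to 3, at most 368 were higher and at most 313 lower.

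**Figure D5:**
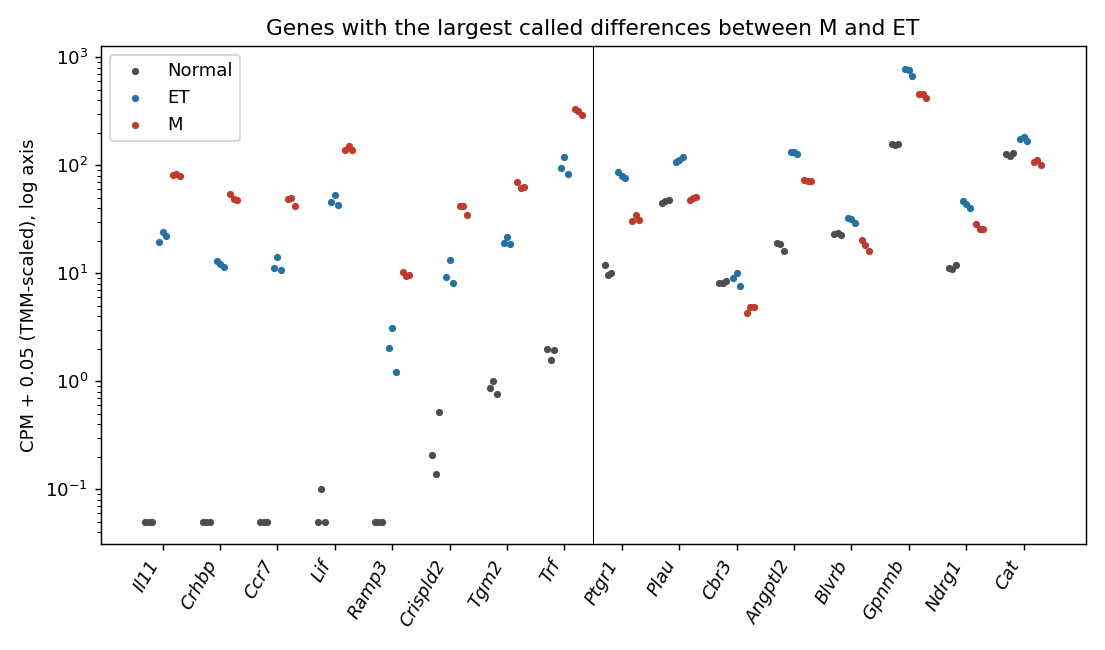
Level in each library, as CPM + 0.05 on a log axis, of 8 genes higher in M than ET (left of the line) and 8 lower (right), the largest differences among genes with at least 5 FPKM in the higher group, with Normal in grey, ET in blue and M in red. On the left M lies above ET and ET above Normal; on the right M lies below ET, and for Cbr3, Blvrb and Cat also below Normal.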

How the data were processed

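Poly(A) RNA of 9 RAW264.7 libraries was sequenced, 3 per group. The submitters' processing notes name cutadapt 1.9, HISAT2 2.2.1, StringTie 2.1.6, DESeq2 and edgeR. The counting tool, its strand setting and the genome build are not given in the sources used here. The deposited table holds whole-number read counts and FPKM values per gene, made by the authors, per the file headers. FPKM is per kilobase and library size and was used for the filter and for comparing levels between genes.

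Counts were fitted in R 4.3.3 with edgeR 4.0.16 (TMM factors, quasi-likelihood test, 1 fit of the 9 libraries) for the 11536 genes that reached FPKM of 1 in 3 or more libraries, with Benjamini-Hochberg adjustment. The step was tested on simulated data. Alternatives were DESeq2 1.42.0, limma 3.58.1 on log2(FPKM + 1) and log2(FPKM + 0.1), other scalings, filters and thresholds, a replicate block, and leaving out each library. Replicate numbers are not stated to mark shared cultures, and same-numbered M and Normal libraries did not deviate together.

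Genes named are a panel of 40, the 12 largest rises and falls among genes with a mean of at least 5 FPKM in the higher group, the members of each list with the lowest p (4 at most), the 8 largest differences from ET each way with the same minimum, the 10 highest by FPKM in each group, runs of neighbours and other-cell markers. Other genes were named after their values were seen, as were members of small counts. The members and lists were chosen with earlier results of these data known. Some named genes are not reported here. Promoters come from RefSeq (GRCm38.p6). Counting error limits low levels: 3 counts per library is 0.0378 to 0.0534 CPM.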

Additional observations from a re-analysis of the deposited data

Results flagged for a closer look

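The change from Normal differed between M and ET for 16 genes named by the size of that difference among genes with a mean of at least 5 FPKM in the higher group, tested as the contrast M minus ET in edgeR's fit. Log2 differences were positive for Ramp3 (2.23), Crhbp (2.06), Ccr7 (1.96), Crispld2 (1.95), Il11 (1.89), Tgm2 (1.70), Trf (1.66) and Lif (1.59), which means a higher level in M. They were negative for Ptgr1 (-1.35), Plau (-1.20), Cbr3 (-0.93), Angptl2 (-0.86), Blvrb (-0.77), Gpnmb (-0.74), Ndrg1 (-0.72) and Cat (-0.72). Tgm2, a protein-crosslinking enzyme, had 0.821, 0.958 and 0.713 CPM in Normal, 19.1, 21.7 and 18.6 CPM in ET and 69.95, 61.2 and 62.4 CPM in M. Angptl2, a secreted angiopoietin-like protein, had 19.2, 18.7 and 16.1 CPM in Normal, 133, 132 and 126 CPM in ET and 72.5, 71.7 and 71.8 CPM in M. Cbr3, a carbonyl reductase, had 8.14, 8.07 and 8.43 CPM in Normal, 8.92, 9.96 and 7.57 CPM in ET and 4.27, 4.81 and 4.79 CPM in M. Which of the 2 groups received the extract cannot be told from the labels, so the direction of these differences with respect to the extract is not known.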

How the results depend on the processing

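Counts of genes called higher and lower in M than in Normal stayed within 1.5 times 4101 and 3978 under every alternative run. Without each library in turn they were 3901 to 4211 higher and 3696 to 4010 lower, and at least 2-fold 1224 to 1249 higher and 591 to 620 lower. The counts of changes of at least 2-fold depended on the filter on low genes: 2236 higher and 921 lower with edgeR's own filter, 2248 and 918 with no filter, and 722 and 340 with FPKM of at least 5. Fewer or more genes were tested there. Counts between M and ET moved more. Higher in M were 888 with DESeq2, 345 with no filter, 339 with limma on log2(FPKM + 0.1) and 215 at an adjusted p of 0.01, and lower were 781, 270 and 171 with DESeq2, no filter and 0.01. Without each library in turn they were 265.0 to 1121 higher and 244 to 707 lower. Without ET replicate 1, 284 were lower. Without ET replicate 2 they were 292 and 244, without M replicate 1 they were 293 and 268, without M replicate 2 they were 368 and 313, and without M replicate 3 they were 290 and 247. Apart from the construction of the filters, the cause was not tested. Same-numbered M and Normal libraries did not deviate together (correlations of 0.0011, -0.050 and 0.0022). Same-numbered ET and M libraries had small positive correlations of 0.076, 0.037 and 0.031, and the other ET and M pairs had -0.057 to 0.023. Such values cannot exclude shared cultures, and pairing was not tested further. With the replicate block the counts were 4068 and 3937, at least 2-fold 1229 and 613, and between M and ET 508 and 414. With M and ET exchanged, changes from Normal were called in the opposite direction for Blvrb (0.43), Cat (0.46), Slc40a1 (0.45) and Idi1 (-0.59). The sign also turned for Cbr3 (0.10) and Fcgr1 (0.0065), but neither was called there. A further 6 named genes lost their call with that exchange, Tlr4 (0.13) and Myd88 (0.033) among them. Another 7, not called in M, were called, Plau (1.285) and Ccnd1 (0.26) among them. Of 466 named genes, 452 kept direction and call under every setting in which they were tested, that exchange aside. Genes of low FPKM were not tested under the filter of FPKM of at least 5. Counting error limits genes with few counts in Normal, where the fold depends on the floor.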

Other observations

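Further gene groups, not described above, moved as follows. Of 10 tested osteoclast genes 9 rose, and Acp5, the tartrate-resistant acid phosphatase, had 4.12, 3.37 and 3.11 CPM in Normal against 66.8, 66.6 and 64.8 CPM in M. Dcstamp, a cell fusion gene, had 6.202, 7.94 and 7.21 CPM in Normal against 48.4, 43.3 and 46.8 CPM in M. RAW264.7 is known as a precursor line for osteoclasts. Autophagy genes rose in 16 of 26, and Sqstm1 (p62) had 242, 230.2 and 234 CPM in Normal against 599, 595 and 584 CPM in M. Cytoskeletal and migration genes rose in 24 of 35, with Marcksl1 at 33.2, 29.2 and 31.9 CPM in Normal against 341, 346 and 333 CPM in M. Among clock genes 5 rose and 6 fell of 14, near the shares of all tested genes (35.5% higher and 34.5% lower). Bhlhe41 had 42.7, 42.8 and 50.4 CPM in Normal against 6.77, 7.603 and 6.55 CPM in M and Nfil3 had 10.3, 11.8 and 14.3 CPM in Normal against 45.3, 44.5 and 47.5 CPM in M. Kmo, of the kynurenine pathway of tryptophan breakdown, had 13.5, 12.5 and 11.3 CPM in Normal against 0.510, 0.837 and 0.434 CPM in M. Kdm5b, a histone demethylase, had 1.12, 1.601 and 1.76 CPM in Normal against 26.1, 26.1 and 26.8 CPM in M. Hspb8, a small heat shock protein, had 0 counts in each Normal library and 3.88, 3.597 and 3.61 CPM in M, at least 72.6-fold higher. Mitochondrial ribosome genes fell in 22 of 51 and rose in 8, against 34.5% lower and 35.5% higher among all tested genes.

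By DNA-binding family as the deposited table lists it, basic leucine zipper factors rose in 25 of 39 tested members and fell in 9, with a median change of 0.78. E2F factors fell in 8 of 10 and HMG factors in 14 of 20. Of 299 C2H2 zinc finger factors 53 rose, 118 fell and 128 were not called. Among all tested genes 35.5% rose and 34.5% fell. Of 414 tested long noncoding genes 137 rose and 119 fell, and of 927 pseudogenes 168 rose and 215 fell, against 3769 and 3589 of 9982 protein-coding genes.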
